A study of Rattus norvegicus with 18 samples.

Results

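Collagen chains were followed through long-term culture of rat bone marrow mesenchymal stromal cells (MSCs), plastic-adherent cells that give rise to bone, cartilage and fat. A set of 9 genes was looked up by symbol in the annotation of the array, namely Col1a1, Col1a2, Col3a1, Col5a1, Col5a2, Col5a3, Col11a1, Col12a1 and Col18a1. Of these 9, 7 were found, each with 1 of the 22226 probes, and all 7 passed the filter on dim probes and were among the 9531 genes tested. Col11a1 and Col12a1 were matched to no probe by symbol and are not described further.

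The cells came from male Sprague-Dawley rats of 12 months (aMSCs) and of 3 weeks (yMSCs), with no transgene and no treatment in any group. RNA was measured in cells of passage 2 (P2), passage 30 (P30) and passage 100 (P100), so that the 6 groups are aMSCs and yMSCs at each passage, with 3 arrays each and 18 arrays in all. The study set cells aged in culture against primary cells of P2 and old donors against young ones. The labels do not say whether the arrays of a group came from separate animals or cultures. The study describes a pair of cultures kept for the long term, so the p-values measure the spread between these arrays, which may be technical. If each late group is a single culture, donor age at P30 and P100 cannot be told apart from the culture.

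A collagen molecule is a triple helix of chains. Types I, III and V assemble into the fibrils of bone, skin and tendon, in which type I is the bulk, type III a partner of flexible tissue, and type V a minor component that starts fibrils and limits their width. Type XVIII lies in basement membranes as a heparan sulfate proteoglycan, and its end fragment is endostatin, an inhibitor of vessel growth. Chains are hydroxylated, folded and joined in the endoplasmic reticulum, trimmed outside the cell, crosslinked by lysyl oxidases and broken down by metalloproteinases and cathepsins.

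The start regions of 3 of the chains are printed because the arrays of P30 and P100 lay above those of P2 in both donor ages for 2 of them, Col1a2 and Col18a1, while Col5a2 was called in no comparison. Each runs from 250 bases before to 50 bases after the RefSeq start of the gene, and capitals mark any match, on either strand, to the letters TATAAA of the TATA box. They also mark CCAAT, the binding letters of the factor NF-Y. The remaining motif searched is GGGCGG, the GC box of Sp factors.
Col1a2 (GRCr8, chr4:33518307-33518606, plus strand): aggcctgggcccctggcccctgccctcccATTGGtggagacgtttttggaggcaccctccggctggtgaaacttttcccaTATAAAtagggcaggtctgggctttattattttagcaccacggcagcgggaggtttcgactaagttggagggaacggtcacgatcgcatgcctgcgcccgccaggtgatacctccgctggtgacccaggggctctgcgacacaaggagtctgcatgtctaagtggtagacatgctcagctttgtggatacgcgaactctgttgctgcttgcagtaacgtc
Col18a1 (GRCr8, chr20:11473395-11473694, plus strand): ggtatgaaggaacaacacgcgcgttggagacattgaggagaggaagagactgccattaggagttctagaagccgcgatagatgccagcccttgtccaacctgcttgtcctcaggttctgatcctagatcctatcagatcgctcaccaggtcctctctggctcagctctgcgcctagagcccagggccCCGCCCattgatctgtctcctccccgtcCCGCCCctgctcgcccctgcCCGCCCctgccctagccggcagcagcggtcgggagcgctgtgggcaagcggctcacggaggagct
Col5a2 (GRCr8, chr9:55090102-55090401, minus strand): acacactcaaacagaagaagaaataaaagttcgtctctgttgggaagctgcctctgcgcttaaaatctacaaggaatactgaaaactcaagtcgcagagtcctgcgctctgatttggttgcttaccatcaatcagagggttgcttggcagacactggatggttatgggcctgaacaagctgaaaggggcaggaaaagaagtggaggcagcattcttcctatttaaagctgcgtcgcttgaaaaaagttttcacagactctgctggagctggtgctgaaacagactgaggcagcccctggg
In the Col1a2 window TATAAA begins 170 bases before the listed start and a CCAAT box on the opposite strand 221 bases before it, while the Col18a1 window holds 3 GC boxes, all on the opposite strand and all within 63 bases of the start. The Col5a2 window holds none of the 3 motifs and has 47.7% G and C, against 62.7% in Col18a1, 57% in Col1a2 and a median of 51.7% over 33469 rat promoters of the same length. TATAAA was found in 14.2%, CCAAT in 37.5% and GGGCGG in 33.1% of those promoters. These matches describe the letters only. In Col1a2 the 50 bases from the listed start begin with atg and hold no stop codon in that frame. The listed start of Col1a2 may therefore be that of the coding sequence, with transcription starting further upstream. Distances to the motifs are thus counted from the listed start and not from a measured start of transcription. Windows of Col5a1, Col5a3 and Col11a1 were also searched. Col5a1, which like Col5a2 was called in no comparison, has 1 GC box, 127 bases before the start its window is set on, and 72% G and C. That window, chr3:31606630-31606929, lies inside the gene, whose listed span begins at base 31606475. Col5a3 has 1 CCAAT box and 3 GC boxes, and Col11a1 has 2 CCAAT boxes and 3 GC boxes. Whether motifs in a window go with the calls of a chain was not tested, and Col11a1 was not measured here. Col1a1, Col3a1 and Col12a1 had no entry in the sequence table. In the same assembly Col3a1 and Col5a2 are direct neighbours on chromosome 9.

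Levels are given as log2 normalized intensity, that is the fluorescence of a probe after background correction and quantile normalization, with 16 added before the logarithm. A probe counts as detected on an array at a detection p of at most 0.01 against the negative control beads. A gene was called higher or lower where limma gave an adjusted p under 0.05 (Benjamini-Hochberg over the 9531 genes) and the fold was at least 1.5. Probes that were not detected had a median intensity of 51.6 to 56.2 on each of the 12 later arrays (P30, P100) and of 31.3 to 34.7 on each of the 6 P2 arrays, so background and late passage cannot be told apart. Between 7593 and 9157 probes were detected on an array of P30 or P100 and 8608 to 9157 on one of P2. Within their groups aMSCs P30 replicate 3 and yMSCs P30 replicate 1 correlated least with the other arrays (means of 0.965 and 0.969, against up to 0.995).

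A gene is called detected in a group where its mean detection p there was at most 0.01. Of 7 stromal marker genes on the array 5 to 7 were detected in every group. Against P2 the stromal list had 6 lower and none higher in aMSCs P30 (median -1.35), and 2 higher and 4 lower in aMSCs P100 (median -1.11). It had 1 higher and 1 lower in both yMSCs comparisons. Of all genes 16.4% to 20.6% were called higher and 16.4% to 20% lower in these comparisons. Macrophage markers were detected at P2, 4 of 12 genes in aMSCs and 9 of 12 in yMSCs, with summed intensities of 670 to 1564 and 1284 to 3178. At P30 and P100 only 1 of the 12, Cd14, was detected in each group (sums of 197 to 607), with Laptm5 at the limit on 2 of 3 arrays of aMSCs P100, and Ptprc, the pan-leukocyte CD45, was detected in no group. Whether the share of such cells has a part in the changes against P2 was not tested, and in these bulk samples fewer cells of a type and less RNA per cell cannot be told apart. Of 5 endothelial markers 1 was detected, the same number in all 6 groups, 2 to 4 of 6 osteoblast markers were detected, and 1 to 2 of 3 cartilage markers, with Col2a1, the cartilage collagen, detected in no group.

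All of the 7 chains except Col5a3 were detected on all 18 arrays, and most were among the bright probes. Col1a2 ranked between 6 and 106 of 22226 probes by brightness, Col5a2 between 20 and 138, Col1a1 between 105 and 341, and Col5a1 between 61 and 563. Col3a1 ranged more widely, with ranks of 165 to 1572, and Col18a1 lay at ranks of 1262 to 4422. Col5a3 was at the edge of detection, with scanner intensities of 39.1 to 143 and 9 of 18 arrays detected. Levels of different probes are not set against each other.

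**Figure D1:**
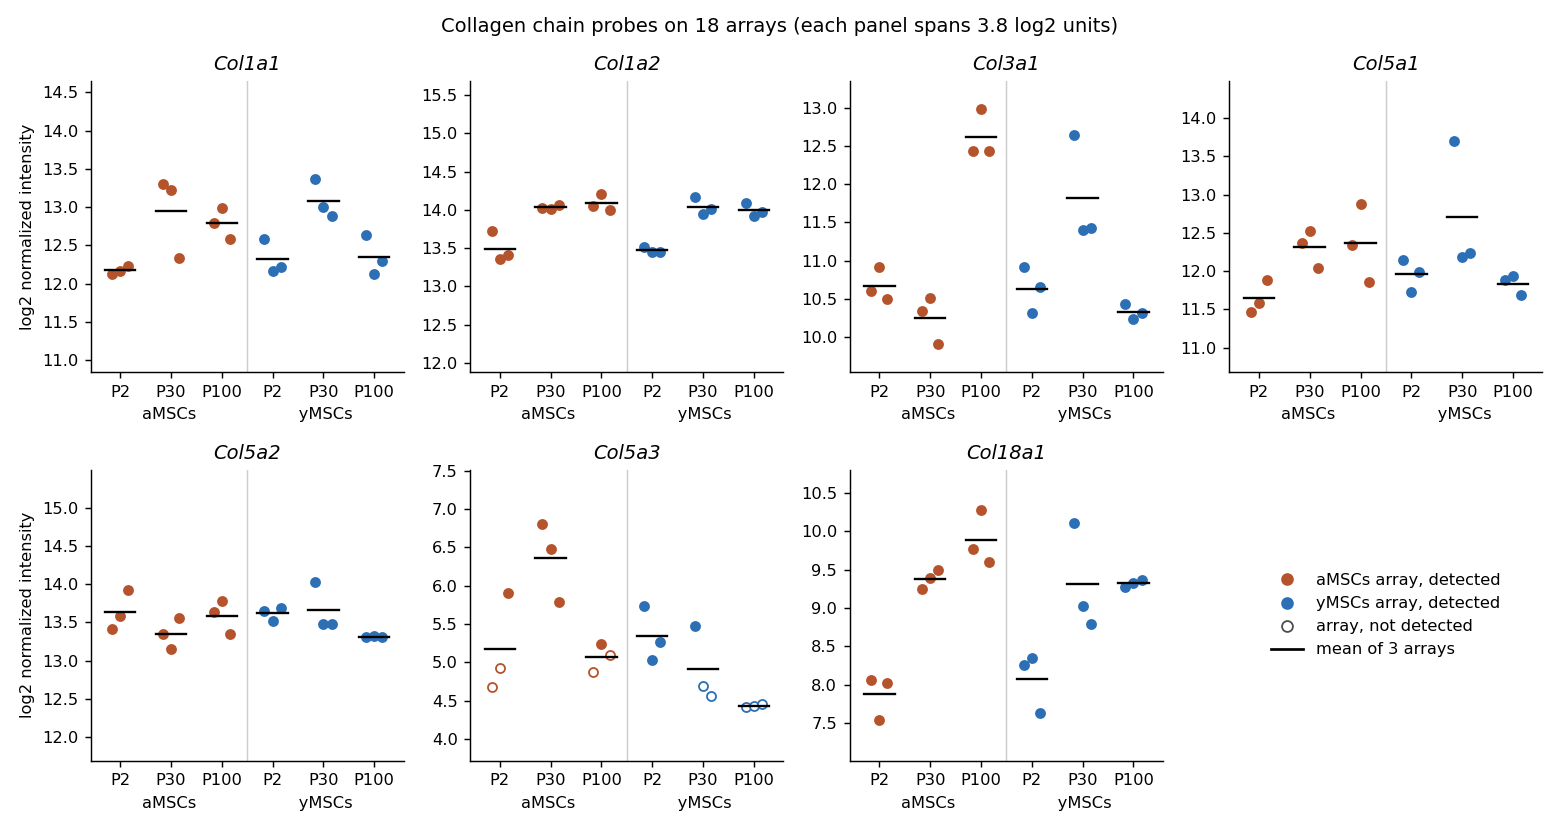
Log2 normalized intensity (vertical axis) of the 7 collagen chains on each of the 18 arrays, by donor age and passage (horizontal axis). Points are arrays, open where the probe was not detected, and bars are means of 3 arrays. Col3a1 is highest in aMSCs P100 and next in yMSCs P30, Col18a1 is lowest at P2 in both donor ages, and Col5a2 is level.

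Col3a1 (NCBI gene ID 84032), the single chain of type III collagen, varied most among the 7, with group means spread over 2.36 log2 units, and it took opposite courses in the 2 donor ages. In aMSCs its log2 values were 10.60, 10.92 and 10.50 at P2, 10.34, 10.51 and 9.91 at P30, and 12.43, 12.98 and 12.43 at P100. All 3 arrays of aMSCs P100 lay above every array of P2 and P30. In yMSCs the values were 10.92, 10.31 and 10.66 at P2, 12.64, 11.40 and 11.43 at P30, and 10.43, 10.23 and 10.32 at P100. Here the P30 arrays lay above all others, and those of P100 were back in the range of P2 or just below it. In scanner units, before any normalization, aMSCs P100 had 4653, 6407 and 6214 and yMSCs P100 had 1317, 1034 and 1236.

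Against P2, Col3a1 was 3.83-fold higher in aMSCs P100, with means of 12.61 ± 0.32 at P100 and 10.67 ± 0.22 at P2 (SD, n = 3 each; log2 difference 1.94, standard error 0.28, limma adjusted p = 2.61e-05). The same contrast in yMSCs gave means of 10.33 ± 0.10 at P100 and 10.63 ± 0.30 at P2, and a difference of -0.30 that was not called (95% interval -0.89 to 0.29). Without normalization between arrays, and in no other setting, it was called lower (-0.65, limma adjusted p = 0.0396). At P30 the picture was turned round. In yMSCs Col3a1 averaged 11.82 ± 0.71 at P30 and 10.63 ± 0.30 at P2, a 2.29-fold rise (log2 difference 1.19, standard error 0.28, limma adjusted p = 0.00243). In aMSCs it averaged 10.25 ± 0.31 at P30 and 10.67 ± 0.22 at P2, a difference of -0.42 that was not called (95% interval -1.01 to 0.17). Replicate 1 of yMSCs P30 stood above its group, and without it the rise was 0.79 (limma adjusted p = 0.00891). In the authors' normalized values it was 0.79 too (limma adjusted p = 0.0311), and there Col3a1 was also called lower in aMSCs P30 than in aMSCs P2 (-0.76, limma adjusted p = 0.0335).

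Between the late passages Col3a1 was 5.13-fold higher at P100 than at P30 in aMSCs (log2 difference 2.36, limma adjusted p = 5.83e-06) and 2.82-fold lower at P100 than at P30 in yMSCs (-1.49, limma adjusted p = 0.00147). The aMSCs and yMSCs thus differed in opposite directions at the late passages, where donor age may not be separable from the single culture. At P30 the aMSCs were lower, by a log2 difference of -1.57 (standard error 0.28, limma adjusted p = 0.000703), and at P100 they were higher, by 2.28 (standard error 0.28, limma adjusted p = 9.79e-06). At P2 the difference was 0.04 (95% interval -0.54 to 0.63). With array weights the difference at P30 was -0.99. The arrays of aMSCs and yMSCs did not overlap at P30 or at P100. The difference between donor ages in the change with passage, tested as an interaction (change in aMSCs minus change in yMSCs), was -1.61 for P30 against P2, 2.24 for P100 against P2 and 3.85 for P100 against P30 (standard error 0.39 each, limma adjusted p = 0.0129, 0.000677 and 2.32e-06). Of all genes tested 11.8%, 13.8% and 21.9% were called in these 3 interactions.

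Marker genes of the stroma and of bone went both ways in aMSCs P100, where Col3a1 was highest. Against aMSCs P2, 2 of 7 stromal markers were called higher and 4 lower, and 1 of 4 osteoblast markers was higher and 2 lower. Of all genes 19.1% were called higher and 18.6% lower there. Nt5e of the stromal list fell, with means of 8.99, 6.88 and 6.10 in aMSCs at P2, P30 and P100. Spp1 of the osteoblast list fell too, with 13.1, 12.2 and 11.5. Pdgfra, a growth factor receptor of stromal cells, had group means of 8.53, 7.69 and 10.49 in aMSCs and 8.10, 8.87 and 8.74 in yMSCs at P2, P30 and P100. Vcam1, an adhesion molecule of marrow stroma, was detected on all 3 arrays in aMSCs P100 alone and was at least 4.4-fold higher there than in aMSCs P30. Dmp1, a matrix protein of osteocytes, read 10.68 to 11.17 in aMSCs P100 and 5.43 to 6.93 in aMSCs P2. It was not detected in aMSCs P30, and so was at least 44-fold higher in aMSCs P100 than there. Acan, the cartilage proteoglycan, was highest at P30, with means of 5.51, 8.71 and 6.78 in aMSCs and 5.57, 8.05 and 5.70 in yMSCs at P2, P30 and P100. The part of such cells in the changes of Col3a1 was not tested.

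Col18a1 (NCBI gene ID 85251), the proteoglycan chain of basement membranes, was the only one of the 7 called in all 4 comparisons with P2, each time higher. Its log2 values in aMSCs were 8.06, 7.53 and 8.02 at P2, 9.24, 9.39 and 9.50 at P30, and 9.77, 10.28 and 9.61 at P100. In yMSCs they were 8.26, 8.34 and 7.63 at P2, 10.11, 9.03 and 8.80 at P30, and 9.28, 9.33 and 9.37 at P100. No array of P30 or P100 came down to the range of P2 in either donor age. The fold was 2.84 in aMSCs P30 (95% interval of the log2 difference 0.91 to 2.10, limma adjusted p = 0.000351) and 4.03 in aMSCs P100 (2.01, limma adjusted p = 2.06e-05). In yMSCs it was 2.36 at P30 (1.24, limma adjusted p = 0.00205) and 2.38 at P100 (1.25, limma adjusted p = 0.00147). The rise in yMSCs P30 was 0.71 with array weights (limma adjusted p = 0.00272), which give arrays far from their group less weight.

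From P30 to P100 Col18a1 gave no further call, with differences of 0.51 in aMSCs (95% interval -0.09 to 1.10) and 0.01 in yMSCs (-0.58 to 0.61). The donor ages gave no call either. The aMSCs differed from yMSCs by -0.20 at P2, 0.06 at P30 and 0.56 at P100, the last with a 95% interval of -0.04 to 1.15 and with no overlap between the arrays. The interaction was 0.27 for P30 against P2 and 0.76 for P100 against P2, neither called, but with array weights it was 1.03 and 1.04 and both were called (limma adjusted p = 0.001 and 0.0465). Its mean at P100 was 9.88 ± 0.35 in aMSCs and 9.32 ± 0.04 in yMSCs (SD, n = 3 each).

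The chains of type I collagen, Col1a1 (NCBI gene ID 29393) and Col1a2 (84352) join in 1 helix and are described in turn. Col1a2 had log2 values of 13.72, 13.36 and 13.41 in aMSCs at P2, 14.02, 14.01 and 14.07 at P30, and 14.05, 14.20 and 14.00 at P100. In yMSCs the values were 13.52, 13.45 and 13.45 at P2, 14.16, 13.94 and 14.01 at P30, and 14.09, 13.91 and 13.97 at P100. All 12 arrays of P30 and P100 lay above all 6 of P2, and the 4 late groups overlapped each other. The brightest probe of an array read 16086 to 17873 in scanner units at P2 and 21546 to 26525 later. Quantile normalization makes these ranges equal, but the difference between the arrays cannot be told apart from late passage. The step against P2 was small and close to the fold limit. It was called in aMSCs P100 (fold 1.51, log2 difference 0.59, standard error 0.12, limma adjusted p = 0.000685) and fell just short of a fold of 1.5 in yMSCs P30 (1.48), aMSCs P30 (1.45) and yMSCs P100 (1.43), where the limma adjusted p was 0.00126, 0.00142 and 0.00184. Scaling moved these values across the limit in both directions. In the authors' normalized values none of the 4 was called, with 0.48 in aMSCs P100, 0.41 in aMSCs P30, 0.42 in yMSCs P30 and 0.39 in yMSCs P100 (limma adjusted p of 0.0152, 0.0359, 0.032 and 0.0416). With cyclic loess normalization all 4 were called, at 0.92, 0.60, 0.80 and 0.61 in the same order. The call in aMSCs P100 was also lost on the fold alone, at differences of 0.52 to 0.58, without any 1 of 9 arrays, namely replicates 2 and 3 of aMSCs P2, replicates 1 and 3 of yMSCs P30, replicates 2 and 3 of aMSCs P30, replicates 1 and 2 of yMSCs P100 and replicate 2 of aMSCs P100.

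Col1a1 had log2 values of 12.12, 12.17 and 12.23 in aMSCs at P2, 13.30, 13.22 and 12.33 at P30, and 12.79, 12.99 and 12.59 at P100. In yMSCs it had 12.59, 12.17 and 12.22 at P2, 13.37, 13.00 and 12.89 at P30, and 12.64, 12.13 and 12.30 at P100. In both donor ages the P30 arrays lay above those of P2, while at P100 the aMSCs stayed above P2 and the yMSCs overlapped it. The rise was called in aMSCs P30 (fold 1.71, log2 difference 0.78, limma adjusted p = 0.00842), yMSCs P30 (fold 1.69, 0.76, limma adjusted p = 0.0116) and aMSCs P100 (fold 1.53, 0.62, limma adjusted p = 0.0313), with a standard error of 0.22 each. In yMSCs P100 the difference was 0.03 (95% interval -0.45 to 0.50), and against yMSCs P30 it was -0.73 (limma adjusted p = 0.051), which was not called.

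These 3 calls of Col1a1 depended on the scaling and on single arrays. In the authors' normalized values the differences were 0.39 in aMSCs P30, 0.35 in yMSCs P30 and 0.10 in aMSCs P100, none of them called (limma adjusted p = 0.19, 0.255 and 0.773), and the median of all genes there was -0.08, -0.10 and -0.09. Relative to that median they were 0.47, 0.45 and 0.19, against 0.73, 0.72 and 0.59 with quantile normalization. The call in aMSCs P30 was lost without replicate 1 of that group (0.60, limma adjusted p = 0.0515). In yMSCs P30 it was lost without P30 replicate 1 or P2 replicate 2 (0.62 to 0.68, limma adjusted p of 0.0501 to 0.0508). In aMSCs P100 it was lost without any of the P2 arrays or without P100 replicate 1 or 2 (0.52 to 0.64, limma adjusted p of 0.0563 to 0.102). In yMSCs P100 the small difference turned to -0.31 in the authors' values and was not called there either. The difference of Col1a1 between P100 and P30 in yMSCs was called lower without aMSCs P30 replicate 1 or 3, yMSCs P100 replicate 1 or aMSCs P100 replicate 2 (-0.87 to -0.73).

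Type V collagen is built mostly of Col5a1 (NCBI gene ID 85490) and Col5a2 (85250), and neither was called in any of the 12 comparisons. Col5a2 was the steadiest chain. Its log2 values in aMSCs were 13.42, 13.58 and 13.92 at P2, 13.35, 13.15 and 13.55 at P30, and 13.64, 13.78 and 13.34 at P100. In yMSCs they were 13.64, 13.52 and 13.69 at P2, 14.03, 13.48 and 13.48 at P30, and 13.31, 13.32 and 13.31 at P100. Group means lay within 0.35, and the 95% intervals of the 4 differences from P2 reached from -0.67 to 0.41, which leaves out a fold of 1.5 upward but not downward. Its interaction for P100 against P30 was 0.58 (limma adjusted p = 0.0933) and was called without aMSCs P100 replicate 3 (0.70).

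Col5a1 had log2 values of 11.47, 11.59 and 11.88 in aMSCs at P2, 12.36, 12.53 and 12.04 at P30, and 12.35, 12.88 and 11.86 at P100. In yMSCs it had 12.15, 11.73 and 11.99 at P2, 13.70, 12.19 and 12.23 at P30, and 11.89, 11.93 and 11.69 at P100. Replicate 1 of yMSCs P30, at 13.70, stood apart from the other arrays of its group. The differences from P2 were 0.67 in aMSCs P30, 0.72 in aMSCs P100, 0.75 in yMSCs P30 and -0.12 in yMSCs P100, with a standard error of 0.32 and limma adjusted p of 0.0938, 0.0748, 0.0693 and 0.778. Leaving out that 1 array called Col5a1 higher in aMSCs P30 (0.67, limma adjusted p = 0.014) and in aMSCs P100 (0.72, limma adjusted p = 0.00968). In aMSCs P100 it was also called without replicate 3 of that group (0.96). In yMSCs P30 it was called without replicate 2 or 3 of that group, with values of 0.98 to 1.00 that rest on the high array, and without that array, replicate 1, the difference was 0.25 (limma adjusted p = 0.414).

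Col5a3 (NCBI gene ID 60379), a chain of type V with a narrower range of tissues, was detected on all 3 arrays of aMSCs P30 and of yMSCs P2, on 1 of 3 in aMSCs P2, aMSCs P100 and yMSCs P30, and on none of yMSCs P100. Its log2 values in aMSCs were 4.68, 4.92 and 5.91 at P2, 6.80, 6.48 and 5.79 at P30, and 4.88, 5.23 and 5.09 at P100. In yMSCs they were 5.74, 5.02 and 5.26 at P2, 5.47, 4.69 and 4.56 at P30, and 4.42, 4.42 and 4.45 at P100. Its mean was highest in aMSCs P30, where 1 array still overlapped aMSCs P2. The differences were 1.19 for aMSCs P30 against aMSCs P2 (limma adjusted p = 0.00481), -1.29 for aMSCs P100 against aMSCs P30 (limma adjusted p = 0.00458) and 1.45 for aMSCs P30 against yMSCs P30 (limma adjusted p = 0.00346), with a standard error of 0.31. These are differences of normalized signal and not measured folds, since aMSCs P2, aMSCs P100 and yMSCs P30 lay at the background on 2 of 3 arrays each. Without aMSCs P30 replicates 1 and 2 these were 0.63, -0.73 and 0.90 and none was called, in a fit where the 1 array left is assumed to vary like the other groups. With an offset of 50 in place of 16 they were 0.72, -0.79 and 0.86, and all 3 were called. The interaction for P30 against P2, which takes in the same dim groups, was 1.62 (standard error 0.44, limma adjusted p = 0.0249), and it was lost, at 1.37 to 1.57, without any 1 of 7 arrays, namely replicate 1 of yMSCs P2, replicates 1 and 2 of aMSCs P2, replicates 2 and 3 of yMSCs P30, and replicates 1 and 2 of aMSCs P30.

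The model also called Col5a3 lower in yMSCs P100 than in yMSCs P2 (means of 4.43 ± 0.02 and 5.34 ± 0.36, SD, n = 3 each, limma adjusted p = 0.023). No fold is given, since the mean signal at P2 was below the mean of the dimmest detected probes on the P100 arrays. This call was lost (limma adjusted p of 0.0503 to 0.107) without yMSCs P2 replicate 1 or any 1 of the P100 arrays.

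**Figure D2:**
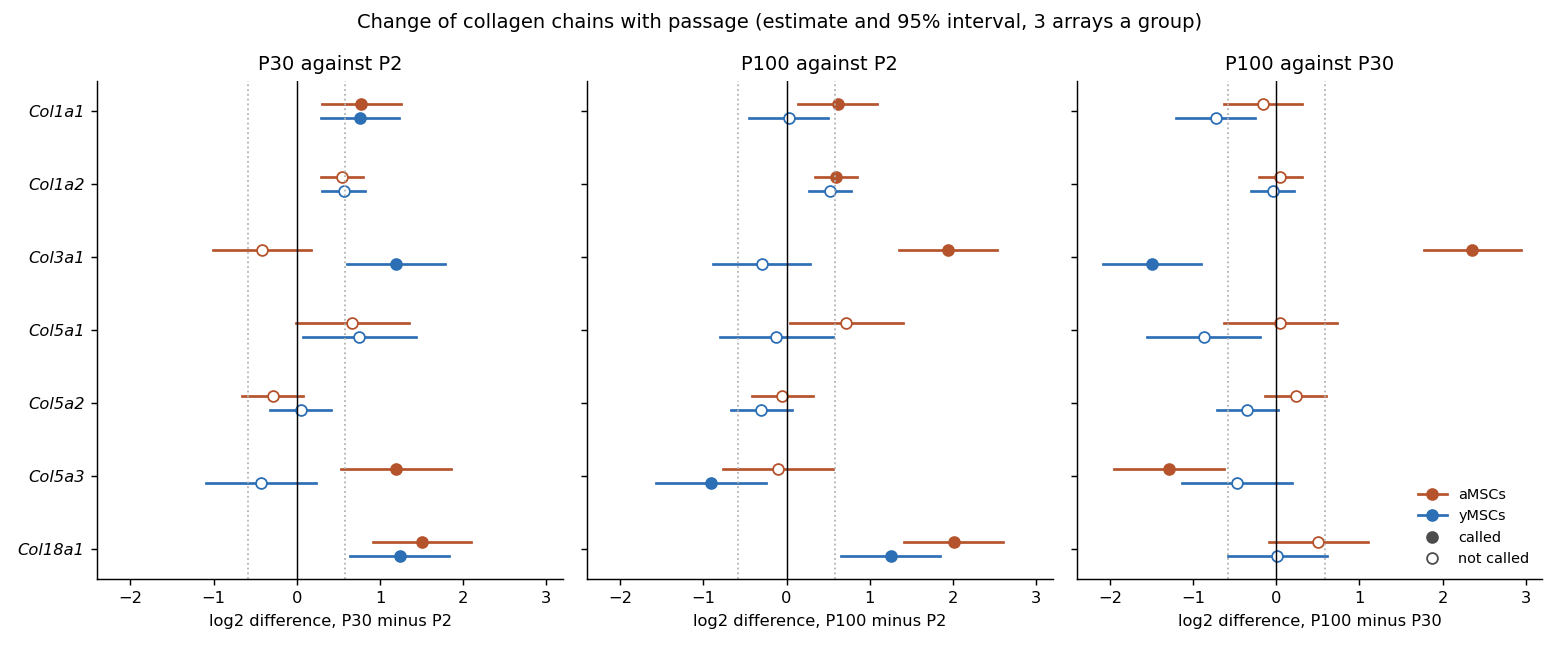
Log2 difference between passages (horizontal axis) for each chain, aMSCs above yMSCs, as the limma estimate with its 95% interval over 3 arrays a group. Filled points were called, and dotted lines mark a fold of 1.5. Col18a1 is called in all 4 comparisons with P2, and the estimates of Col3a1 lie on opposite sides of 0 in the 2 donor ages in all 3 panels.

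Counted over the 7 chains, 3 were higher and none lower in aMSCs P30 against aMSCs P2 (Col1a1, Col5a3, Col18a1), where 39.3% of all genes tested were called, 19.3% higher and 20% lower. For 4 of the 7 the arrays of these groups did not overlap, as for 62.2% of all genes. In aMSCs P100 against aMSCs P2, 4 were higher and none lower (Col1a1, Col1a2, Col3a1, Col18a1), with 37.7% of all genes called, 19.1% higher and 18.6% lower. Here too 4 of the 7 did not overlap, beside 58.9% of all genes. In yMSCs P30 against yMSCs P2, 3 were higher and none lower (Col1a1, Col3a1, Col18a1), with 32.7% of all genes called, 16.4% in each direction, and 5 of the 7 did not overlap, beside 52.8% of all genes. In yMSCs P100 against yMSCs P2, Col18a1 was higher and Col5a3 lower, with 39.3% of all genes called, 20.6% higher and 18.7% lower, and 4 of the 7 did not overlap, beside 68.8% of all genes. The median log2 difference of the 7 was 0.67 in aMSCs P30, 0.62 in aMSCs P100, 0.75 in yMSCs P30 and -0.12 in yMSCs P100, beside 0.05, 0.03, 0.04 and 0.06 over all genes. In the authors' normalized values the medians of the 7 were 0.39, 0.20, 0.35 and -0.48, beside -0.08, -0.09, -0.10 and -0.06 over all genes. The pairs of comparisons within a donor age share the arrays of P2.

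P100 against P30 gave 2 calls in aMSCs, Col3a1 higher and Col5a3 lower, with 26.3% of all genes called, 14.2% higher and 12.1% lower. The arrays did not overlap for 3 of the 7 chains and for 40.7% of all genes. In yMSCs it gave 1 call, Col3a1 lower, with 7.87% of all genes called, 3.37% higher and 4.5% lower. In this comparison 5 of the 7 chains did not overlap, beside 29.3% of all genes, and Col18a1 alone had a difference above 0.

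Between the donor ages no chain was called at P2 and none had an unadjusted limma p under 0.05, while 4.05% of all genes were called, 1.77% higher in aMSCs and 2.28% lower. The arrays of aMSCs P2 and yMSCs P2 overlapped for all 7 chains, and 24.3% of all genes did not overlap. At P30 the aMSCs had Col5a3 higher and Col3a1 lower, with 17.6% of all genes called, 8.13% higher and 9.51% lower. These 2 chains were also the ones that did not overlap, beside 29.4% of all genes. Leaving out 1 array moved the count of all genes called here, 1681, to between 1086 and 2414, and that of the interaction for P30 against P2, 1123, to between 726 and 2122. At P100 Col3a1 alone was called, as higher, with 19% of all genes called, 10% higher and 9.02% lower. All 7 differences were above 0 there, and 4 of the 7 did not overlap, beside 43.5% of all genes. In the interactions Col5a3 was called higher and Col3a1 lower for P30 against P2 (5.81% and 5.97% of all genes), and Col3a1 alone was called, as higher, for P100 against P2 (8.16% higher, 5.59% lower) and for P100 against P30 (11.4% higher, 10.5% lower).

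**Figure D3:**
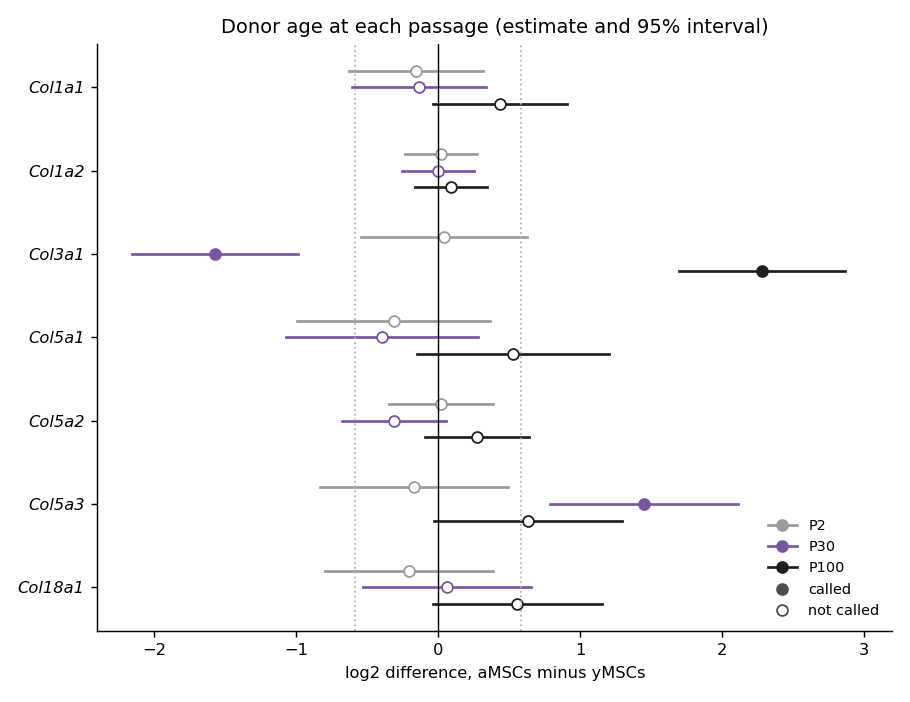
Log2 difference between aMSCs and yMSCs (horizontal axis) of each chain at P2, P30 and P100, from top to bottom within a gene, as the limma estimate with its 95% interval over 3 arrays a group. At P2 all 7 intervals span 0, and Col3a1 is lower in aMSCs at P30 and higher at P100.

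Across the 18 arrays, which hold the group differences and so are given as a description, Col1a2 and Col18a1 ran most alike (r = 0.93), followed by Col1a1 and Col5a1 (r = 0.81). Within groups, after taking out the group means, the closest pair was Col3a1 and Col5a1 (r = 0.87), and the same array, yMSCs P30 replicate 1, was high for both. Col5a2 followed none of the others over the 18 arrays, with r between -0.21 and 0.48. Over all named genes the most alike to Col3a1 were Runx1t1 (r = 0.93), a transcriptional corepressor, Ephx2 (0.92), the soluble epoxide hydrolase, and Cpt1a (0.91), which carries fatty acids into mitochondria. Col18a1 ran with Gon4l (0.96), Snrnp200 (0.96), a helicase of the spliceosome, and Hnrnpm (0.95), an RNA-binding protein. Col1a2 ran with Dmrt3 (0.96), Tpt1 (0.95) and Pank1 (0.95), and Col1a1 and Col5a1 were both nearest to the kinase Tnk2 (0.89 and 0.91). The values nearest to Col5a2 were lower (Prickle1, 0.81), and Col5a3 was nearest to Ppp1r12c (0.95).

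Other collagen chains moved in both directions. Of 18 on the array 9 were tested, with 4 higher and 3 lower in aMSCs P30 and 1 and 5 in aMSCs P100, each against P2. Both yMSCs P30 and yMSCs P100 had 3 higher and 4 lower. Beside these, 16.4% to 20.6% of all genes were called higher and 16.4% to 20% lower in the same comparisons. Col6a1, a chain of the beaded filaments of type VI, had means of 10.75, 11.86 and 11.50 in aMSCs and 10.79, 9.70 and 5.66 in yMSCs at P2, P30 and P100. At P100 it was higher in aMSCs than in yMSCs by 5.84 (standard error 0.31). Col15a1, the close relative of Col18a1 in basement membranes, went the other way from it. Its means were 9.90, 8.25 and 4.56 in aMSCs and 9.57, 5.17 and 4.36 in yMSCs, and at P100 no array detected it, so that it was at least 27.9-fold lower than P2 in aMSCs and at least 17.9-fold lower in yMSCs. Such bounds set the brighter group against the dimmest detected probes of the other arrays. Col14a1, which binds to the surface of fibrils, fell by 1.08 in aMSCs P100 and by 2.94 in yMSCs P100 (standard error 0.38). Col8a1, a short-chain collagen, fell by 1.39 in aMSCs P30 and by 1.26 in aMSCs P100, and its differences of -0.42 and -0.57 in yMSCs were not called. Col4a1, the main chain of basement membranes, was higher in yMSCs P30 (0.90) and lower in aMSCs P100 (-1.09). Col17a1 of hemidesmosomes was dim, and was at least 3.41-fold lower in aMSCs P100 than in aMSCs P2.

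Genes that modify, fold, trim and crosslink collagen moved in both directions. Of 24 tested genes of 27 on the array, 7 were lower and none higher in aMSCs P30, 6 higher and 5 lower in aMSCs P100, 4 and 4 in yMSCs P30, and 2 higher and 5 lower in yMSCs P100. The list's median lay between -0.11 and 0.13 in the 4 comparisons, and between 0.03 and 0.06 over all genes. The 3 genes of this list with the highest mean signal were called in none of the comparisons with P2, namely Sparc, a collagen-binding chaperone of the matrix, Ppib, the cyclophilin of the prolyl 3-hydroxylase complex, and P4hb, a subunit of prolyl 4-hydroxylase. Crtap, a partner of Ppib in that complex, fell by 1.16 in aMSCs P30, 0.92 in aMSCs P100, 1.79 in yMSCs P30 and 1.79 in yMSCs P100 (standard error 0.24). P3h2, a prolyl 3-hydroxylase, was detected only at P2, and was at least 3.75-fold lower in aMSCs P100 and at least 4.25-fold lower in yMSCs P100. Adamts2, which trims the amino end of procollagens, was detected in every group except yMSCs P100, where it was at least 3-fold lower than in yMSCs P2. At P100 it was at least 2.97-fold higher in aMSCs than in yMSCs.

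In the list of collagen breakdown, 6 of 9 tested genes (12 on the array) were lower in aMSCs P30, aMSCs P100 and yMSCs P30 and 7 in yMSCs P100, and none was higher. The list's medians were -1.01, -1.31, -0.85 and -1.32, and 18.6% to 20% of all genes were called lower in the aMSCs comparisons and 16.4% to 18.7% in those of yMSCs. Ctsk, the collagen-cleaving cathepsin K, fell by 2.81 in aMSCs P30 and 5.80 in aMSCs P100 and by 4.51 in yMSCs P30 (standard error 0.18), and in yMSCs P100, where it was not detected, it was at least 88.6-fold lower. Fap, a surface peptidase of activated fibroblasts, was detected at P2 only (at least 8.05-fold lower in aMSCs P100 and 3.49-fold lower in yMSCs P100). Ctsl and Mmp16 were also lower in all 4. The list holds inhibitors as well as proteases, and Timp1, a tissue inhibitor of metalloproteinases, fell by 1.01 to 1.94. Mmp14, the membrane-bound collagenase, was lower in yMSCs P100 (-0.77) and had 0.44 in aMSCs P100, which was not called. Against P2, 6 of 9 tested macrophage markers were lower in aMSCs at P30 and 5 at P100. For yMSCs these counts were 9 and 8, and no marker was higher in either donor age. Cd14, the brightest of them, had a mean below that of P2 at P30 only. Its means at P2, P30 and P100 were 8.38, 7.35 and 8.71 in aMSCs. For yMSCs they were 8.98, 7.64 and 9.06. Macrophages also express Ctsk and Ctsl, and the part of such cells in the lower signals of this list was not tested.

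Partners of the fibril, 14 of 14 on the array tested, gave 1 higher and 9 lower in aMSCs P30, 3 and 7 in aMSCs P100, 2 and 9 in yMSCs P30, and 2 and 9 in yMSCs P100. Of all genes 19.3% and 20%, 19.1% and 18.6%, 16.4% and 16.4%, and 20.6% and 18.7% were called higher and lower in these comparisons. At P100, 8 of the 14 were higher and 2 lower in aMSCs than in yMSCs (10% and 9.02% of all genes), with a median of 1.42. Aspn, a small leucine-rich proteoglycan that binds type I collagen, had means of 10.88, 7.18 and 10.87 in aMSCs and 11.74, 4.74 and 4.54 in yMSCs at P2, P30 and P100. It was at least 44.1-fold higher in aMSCs P100 than in yMSCs P100. Thbs2, a matricellular protein needed for regular fibrils in mice, had 10.00, 5.36 and 8.79 in aMSCs and 10.90, 7.99 and 4.64 in yMSCs. Like Col3a1, Thbs2 was higher at P100 than at P30 in aMSCs and lower in yMSCs. Unlike Col3a1, it was highest at P2 in both donor ages. Postn, periostin, had 12.47, 12.31 and 10.65 in aMSCs and 12.90, 12.60 and 6.63 in yMSCs. Lum, lumican, was lower than P2 in all 4 comparisons and not detected in aMSCs P30, yMSCs P30 or yMSCs P100 (at least 20.4-fold lower in aMSCs P30 and at least 142-fold lower in yMSCs P30). Ogn fell by 2.16 in aMSCs P30 and 2.01 in yMSCs P100 and had -0.19 in aMSCs P100, not called. Fn1, fibronectin, fell by 1.06 in aMSCs P30 and 0.70 in aMSCs P100 (standard error 0.20) and was not called in yMSCs.

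Collagen receptors, 4 tested of 6, had no higher call against P2, with 3 lower in aMSCs P30 and P100, none in yMSCs P30 and 2 in yMSCs P100, beside 16.4% to 20% of all genes called lower. Itgb1, the shared beta1 integrin chain, fell by 1.42 in aMSCs P30 and 1.29 in aMSCs P100, and Itga11, which pairs with it to bind fibrillar collagen, fell by 1.04 in aMSCs P100 and 1.21 in yMSCs P100. Itga1 was lower in both aMSCs comparisons and in yMSCs P100, and Ddr1 in aMSCs P30 alone (-1.80, detected on 1 of 3 arrays there). Of 16 tested regulators of collagen genes (19 on the array), 3 were lower in aMSCs P30, 2 were higher and 4 lower in aMSCs P100, 4 higher and 1 lower in yMSCs P30, and 2 higher and 2 lower in yMSCs P100, beside 16.4% to 20.6% of all genes called higher and 16.4% to 20% lower. Ccn2, the connective tissue growth factor induced by TGF-beta, and the transcription factors Cebpb and Smad4 had the highest mean signals of this list and were called in none of the 4. Tgfb2 fell by 1.86 in aMSCs P100 and 0.80 in yMSCs P100. Fli1, a repressor of type I collagen genes in human fibroblasts, rose by 1.21 and 1.33 in these groups, and Klf4 was lower in all 4 comparisons.

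**Figure D4:**
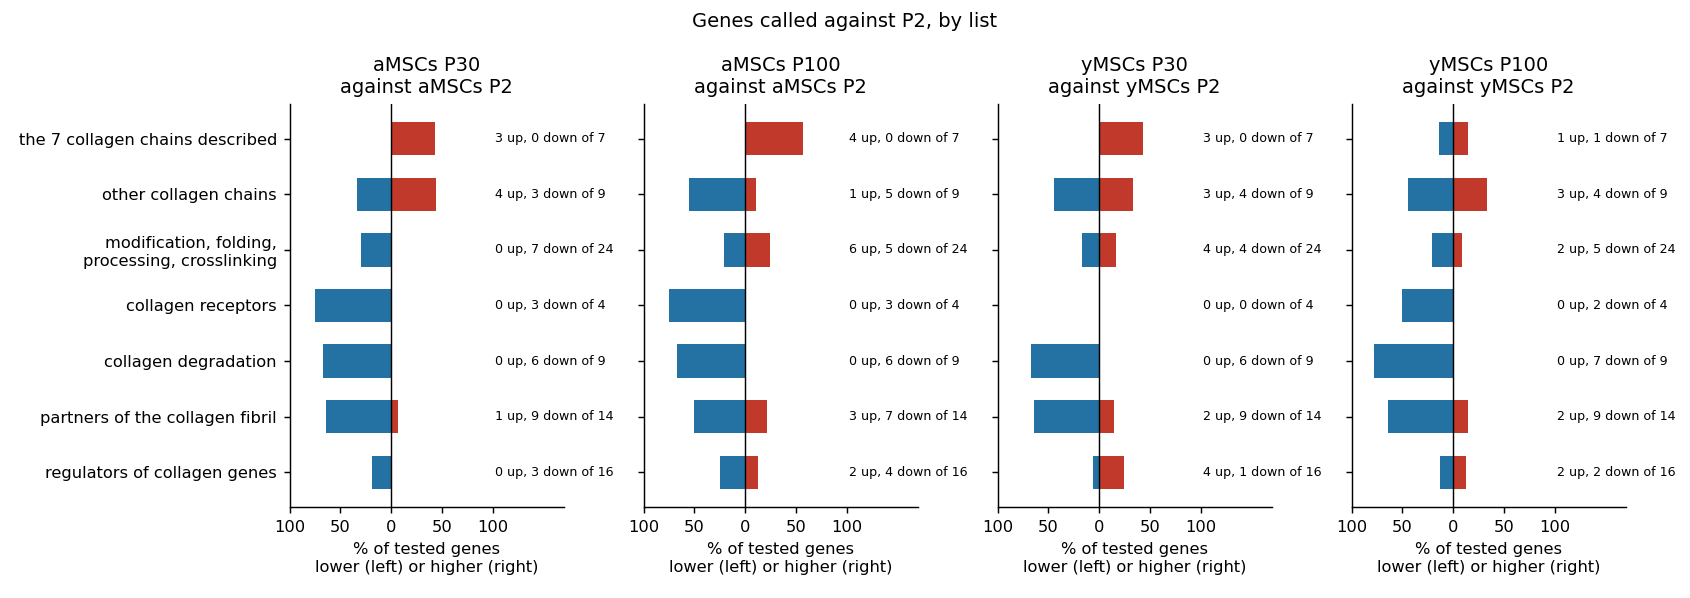
Share of tested genes in each list called higher (right of 0) or lower (left of 0) than P2 (horizontal axis, percent), in 4 panels by group, with the counts beside the bars. The degradation list has 6 or 7 of 9 genes lower and none higher in each panel, while the 7 collagen chains described have 0 to 1 lower.

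**Figure D5:**
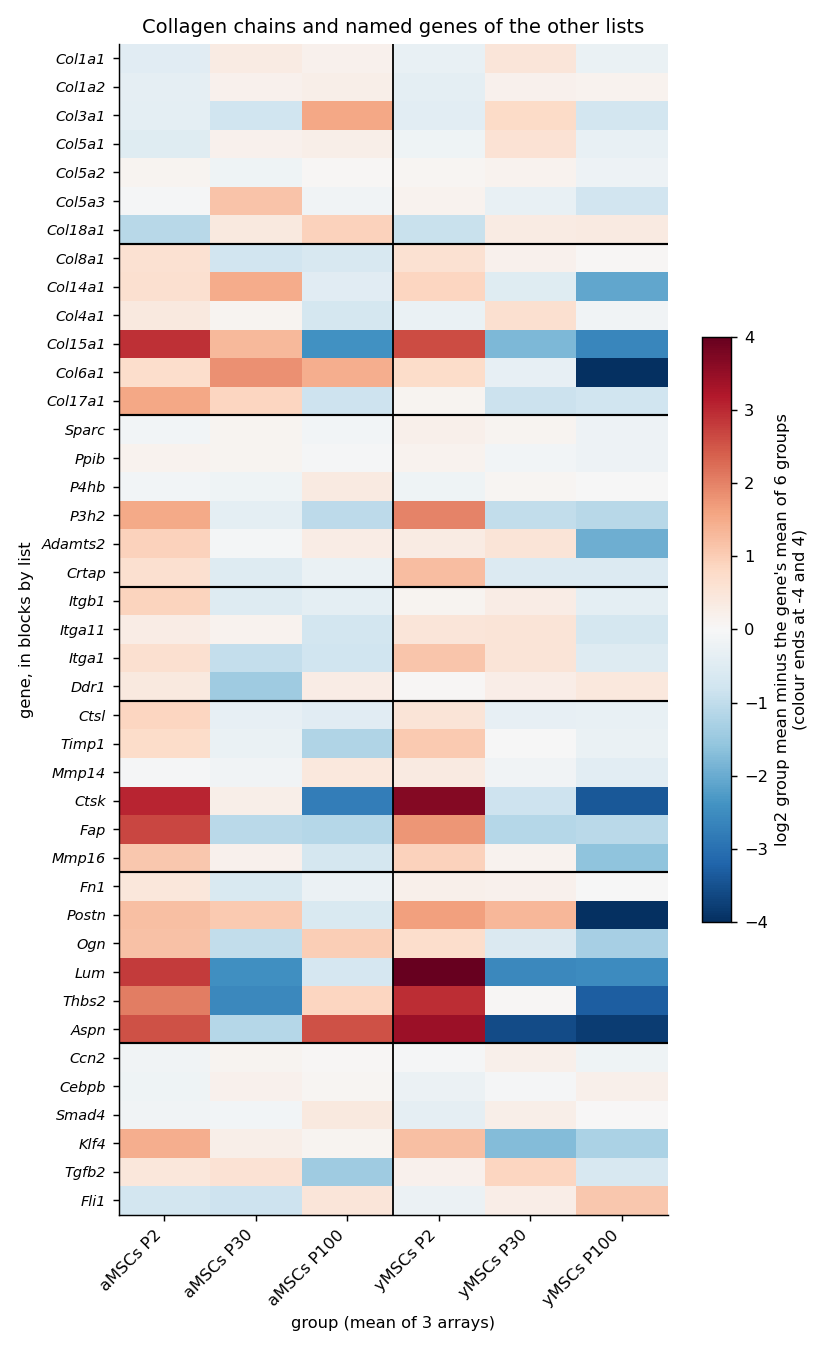
Group means of 3 arrays (columns) as the log2 difference from the gene's mean over the 6 groups, for the 7 collagen chains and the named genes of the other lists (rows, blocks in the order of the plot of list counts). Groups in which a probe was not detected sit at the background, so their colour shows no more than a low signal. The chains vary by 0.35 to 2.36 log2 units between groups, and Lum, Aspn, Postn, Ctsk and Col15a1 by far more.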

How the data were processed

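Total RNA of 18 samples was hybridised to Illumina RatRef-12 BeadChips, 1 sample an array. The authors deposited, per array, the summarised scanner intensity and the detection p-value of each probe, exported with BeadStudio (version 3 in the submitters' processing notes), and a table of normalized values that their methods describe as background-subtracted and rank-invariant. That table has no log applied, and how its scaling treats P2 against later arrays is not given in the sources used here.

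The deposited intensities were corrected with limma's nec function (version 3.58.1 in R 4.3.3) (background estimated from detection p-values; offset 16), quantile normalized and expressed as log2 values. Detection p-values come in steps of 1 in 825. Genes came from the platform annotation, in which 13192 of 22226 probes had a single symbol and 9034 none. The probe of highest mean represented a gene, 70 probes whose intensity could not be paired with the same row of the normalized table were kept unnamed, and testing required a group mean detection p of 0.01 or less somewhere among the 6 groups. One limma model with 6 group means (12 residual and 4.51 prior degrees of freedom) gave 12 comparisons, two-sided, with Benjamini-Hochberg adjustment over 9531 genes and a fold limit of 1.5. The model was also run on simulated data with independent noise for each gene, as a check of the code. These held no background difference between P2 and later arrays and no outlying arrays. Intervals are 95%. With 3 arrays a group, their number limits the precision.

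For a gene not detected on any array of the dimmer group, a fold is a lower bound, the mean of the brighter group against the mean of, per array, the higher of the lowest detected signal and the gene's own.

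The 9 chains, the other lists and the tests were chosen with earlier results of these data known. From each other list the text names up to 3 genes of highest signal and up to 3 called genes of largest change to P100, and for each chain the 3 named genes of highest correlation. Alternatives were the authors' normalized log2 values, other normalizations, offsets, floors, filters and fold limits, array weights, a replicate block, fits on the compared groups only and leaving out each array. A removal of 3 arrays and a median scaling were added after seeing the data. Replicate numbers are only a label: deviations of same-numbered arrays correlated between -0.717 and 0.569.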

Additional observations from a re-analysis of the deposited data

Results flagged for a closer look

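The aMSCs and yMSCs differed in how a chain changed with passage, for Col3a1 and Col5a3. This was the interaction term of the limma model (change in aMSCs minus change in yMSCs, 3 arrays a group). If each late group is a single culture, donor age cannot be told apart from the culture in these terms. For Col3a1 the term was -1.61 for P30 against P2 (standard error 0.39, limma adjusted p = 0.0129), 2.24 for P100 against P2 (limma adjusted p = 0.000677) and 3.85 for P100 against P30 (limma adjusted p = 2.32e-06). For Col5a3 it was 1.62 for P30 against P2 (standard error 0.44, limma adjusted p = 0.0249), and this one was lost without any 1 of 7 arrays, as given above, at 1.37 to 1.57. It takes in groups where Col5a3 lay at the background on 2 of 3 arrays, so it is a difference of signal and not a measured fold. The 3 terms of Col3a1 share arrays with each other.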

How the results depend on the processing

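Of 34 settings tried, Col3a1 kept each of its calls and Col18a1 each of its calls against P2 in all, with Col3a1 in aMSCs P100 against aMSCs P2 between 1.44 and 2.06 and Col18a1 there between 1.82 and 2.15. Over 7 chains and 12 comparisons, 68 of 2856 values lost a call, 45 gained one and none reversed. Calls of Col1a1, Col1a2 and Col5a3 were the ones lost. The cause was not tested.

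For yMSCs P100 against yMSCs P2 the count of chains called was 2, and 1 with the authors' values, an offset of 50, a floor, no filter, a fold of 2 or median scaling. For aMSCs P100 against aMSCs P2 it was 4, and 2 with the authors' values or a fold of 2. For aMSCs P30 against aMSCs P2 it was 3, with 5 under array weights and 1 without aMSCs P30 replicates 1 and 2. For yMSCs P100 against yMSCs P30 it was 1, with 2 under no normalization, cyclic loess or either removal of several arrays, and 3 under median scaling. Both removals gave 1 in place of 2 for aMSCs P100 against aMSCs P30 and for aMSCs P30 against yMSCs P30. For aMSCs P100 against yMSCs P100 it was 1, and 2 with only the groups compared. The interaction for P30 against P2 gave 2, and 1 with no normalization, a floor, no filter, only the groups compared, either removal or median scaling. That for P100 against P2 gave 1, and 2 with array weights, and that for P100 against P30 gave 1, and 2 with no normalization, array weights or either removal.

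Leaving out 1 array gave 2 to 5 (yMSCs P30), 2 to 4 (aMSCs P30), 1 to 2 (yMSCs P100) and 2 to 5 (aMSCs P100) against P2, 1 to 2 for P100 against P30 in yMSCs and 2 to 2 in aMSCs, 0 to 0, 2 to 2 and 1 to 1 between donor ages at P2, P30 and P100, and 1 to 2, 1 to 1 and 1 to 2 for the interactions. Counts of all genes called then ranged from 2763 to 3223, 3373 to 4110, 3402 to 3837 and 3359 to 3800 against P2, in that order.

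With the replicate number as a block, the count for yMSCs P100 against yMSCs P30 was 2 in place of 1, Col1a1 being added, and no other count moved by over 1.5 times. The numbers did not pair the samples: 5 of 18 arrays correlated best with arrays of their own number.

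The share of calls that were higher moved by over 10 points with some scalings. Against P2, 50% of calls were higher in yMSCs P30, with 38% in the authors' values and 33.5% without normalization. The share was 52.5% in yMSCs P100 (42.4% with cyclic loess, 32.4% without normalization), 50.7% in aMSCs P100 (40.6% in the authors' values) and 49.1% in aMSCs P30 (31.4% without normalization). Without normalization it was also 68% in place of 53.9% for aMSCs P100 against aMSCs P30, 71.1% in place of 52.6% for aMSCs P100 against yMSCs P100, and 74.6% and 72.5% in place of 59.3% and 52.2% for the interactions of P100 with P2 and P30. Low signal limits Col5a3, detected on 9 of 18 arrays.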
